A study of Mus musculus with 3 samples.

Results

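Transcripts of 10 genes were followed across 3 myeloid populations of the mouse colon: the matrix metalloproteinase (MMP) genes Mmp8, Mmp9, Mmp12, Mmp13, Mmp14, Mmp19 and Mmp25, and the tissue inhibitor of metalloproteinases (TIMP) genes Timp1, Timp2 and Timp3. The members were given as a list of gene symbols, and all 10 were found. They are 7 of the 23 Mmp symbols and 3 of the 4 Timp symbols in the tables, and 10 of 24346 symbols in all. Dendritic cells without CD64 (CD64- DC), macrophages with it (CD64+) and Gr-1+ CD11b+ cells had each been taken from the colon of untreated BALB/c mice in good health, with 1 library per population. CD64 is the high-affinity IgG receptor Fcgr1, Gr-1 is a surface epitope of granulocytes and monocytes, and the labels call the Gr-1+ CD11b+ cells neutrophil and monocyte. All 3 groups share the strain and tissue and carry no engineered allele or treatment in the labels. The sources used here give no age, sex, number of mice or pooling. Without replicates there is no spread between samples, so no test, p-value or standard error is given for any difference.

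Metalloproteinases of this family are zinc enzymes that are made as inactive proenzymes and cut collagens, elastin and other matrix proteins, as well as cytokines and receptors at the cell surface. TIMP proteins block the catalytic zinc, so the activity of an enzyme in tissue depends on its synthesis, its activation and the local amount of inhibitor. In the gut, neutrophils carry preformed MMP8 and MMP9 in their granules, macrophages make several family members, and fibroblasts are a further source of both enzymes and inhibitors.

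What makes the 7 enzymes one family is visible in their coding sequence. Each of the longest annotated open reading frames, read from the GENCODE M21 transcripts of GRCm38, held 1 copy of the zinc-binding site, and the 3 Timp reading frames held none. The following lines give the site as 33 bases of the coding strand, 5′ to 3′, with the codons of the 3 zinc-binding histidines in capitals.
Mmp8: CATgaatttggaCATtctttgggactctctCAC
Mmp9: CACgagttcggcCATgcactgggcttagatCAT
Mmp12: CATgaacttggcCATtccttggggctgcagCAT
Mmp13: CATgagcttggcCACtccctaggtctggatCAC
Mmp14: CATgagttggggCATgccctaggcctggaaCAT
Mmp19: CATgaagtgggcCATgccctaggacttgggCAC
Mmp25: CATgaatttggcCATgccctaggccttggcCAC
Of the 33 bases, 16 were identical in all 7 genes. Any pair shared between 20 and 29 bases, and the pair with 29 was Mmp19 and Mmp25. The encoded proteins ranged from 465 residues for Mmp8 to 730 for Mmp9, while the Timp proteins had 205, 220 and 211 residues for Timp1, Timp2 and Timp3.

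Values are FPKM, which corrects fragment numbers for transcript length and library size, so levels can be set side by side between genes. In what follows, 3 values in a row are always given in the order DC, macrophages, Gr-1+ CD11b+ cells. From the steps between low FPKM values, the DC and macrophage libraries were estimated to be 3.60 and 2.72 times as deep as the Gr-1+ library. Genes that myeloid cells do not use served as a background: the 95th percentile of 1452 olfactory and vomeronasal receptor genes, called the silent-gene level here, was 0.611, 3.24 and 9.69 FPKM. Fcgr1 was at 9.23, 113 and 12.3 FPKM, and the summed FPKM of 12 macrophage markers was 3489, 29243 and 2848. The sum of 15 neutrophil genes was 1801, 4793 and 180143, with Elane listed at 0 in every library, Mpo at 0 in DC and Camp at 0 in DC and macrophages. The sum of 10 dendritic cell markers was 1511, 428 and 103, with most of the DC sum from Ccr7, at 1004, 107 and 27.5. Of the 10, 8 were higher in DC than in macrophages. Itgax (19.7, 47.0 and 16.4) and Xcr1 (2.83, 3.30 and 4.18) were not. The DC library also held the B and plasma cell list at a summed FPKM of 22671, against 1164 and 431 in the other libraries, and none of its 7 genes was at 0. The part of these other cells in the results below was not tested, and in bulk RNA fewer cells of a type and less RNA per cell cannot be told apart.

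Mmp8 and Mmp9 stood out in the Gr-1+ CD11b+ library. Mmp8 (chromosome 9, 7558456 to 7568485, plus strand, GRCm38) encodes the neutrophil collagenase, which is stored in specific granules and cleaves fibrillar collagen. Its FPKM was 6.69 in DC, 31.5 in the macrophage library and 526 in Gr-1+ cells. Gr-1+ cells were 78.7-fold above DC and 16.7-fold above macrophages, and macrophages were 4.71-fold above DC. In the Gr-1+ library, Mmp8 lay at percentile 99.3 of all symbols.

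Mmp9 (chromosome 2, 164940780 to 164955850, plus strand) encodes gelatinase B, a granule enzyme that cuts denatured collagen and basement membrane collagen. It reached 12.5 FPKM in DC, 43.6 in the macrophage library and 865 in Gr-1+ cells, the highest level of any member in any library. The order of the libraries was that of Mmp8, with folds of 69.2 over DC, 19.8 over macrophages and 3.49 between macrophages and DC. The ratio of Mmp9 to Mmp8 was 1.87, 1.39 and 1.64. Both genes therefore kept a similar proportion to each other in libraries whose levels differed widely. The values rested on about 323, 851 and 6209 fragments for Mmp9 and on about 132, 469 and 2884 for Mmp8.

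**Figure D1:**
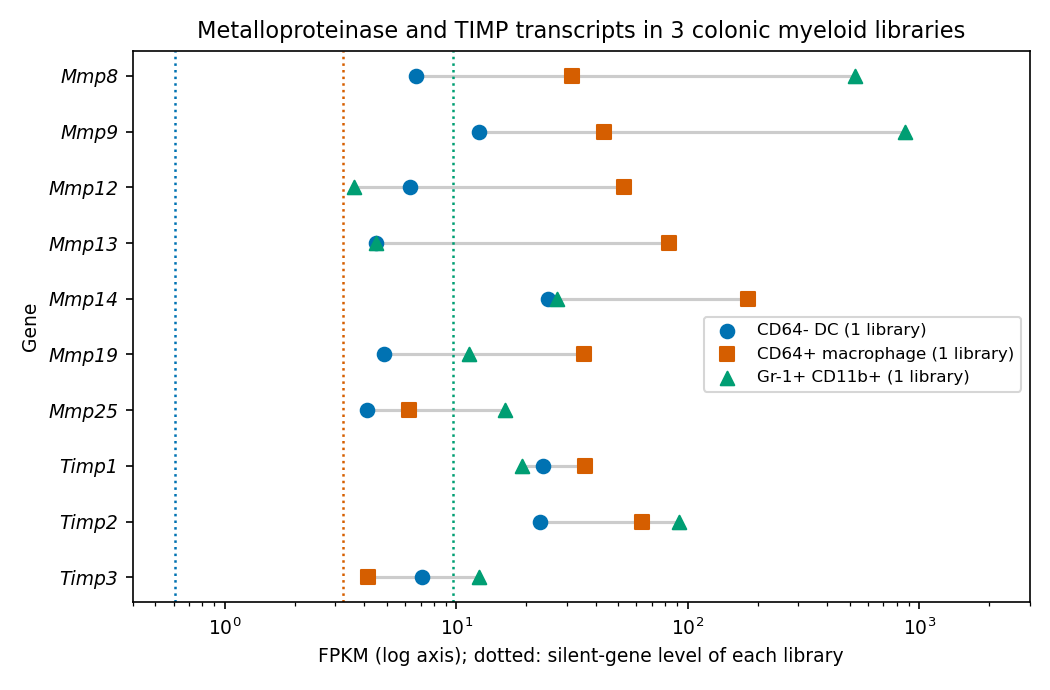
FPKM on a log axis of the 10 genes (rows) in the DC (circles), macrophage (squares) and Gr-1+ CD11b+ (triangles) libraries, 1 library per point, with the silent-gene level of each library as a dotted line in the same colour. Mmp8 and Mmp9 reach 526 and 865 FPKM in Gr-1+ cells, Mmp12, Mmp13, Mmp14 and Mmp19 are highest in macrophages, and the Gr-1+ points of Mmp12 and Mmp13 lie left of the Gr-1+ dotted line at 9.69.

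Mmp12, Mmp13, Mmp14 and Mmp19 were highest in the CD64+ macrophage library. Mmp14 (chromosome 14, 54431612 to 54445364, plus strand) encodes a membrane-anchored collagenase that also activates the proenzyme of MMP2. Its FPKM was 25.0 in DC, 182 in the macrophage library and 27.1 in Gr-1+ cells, so that macrophages stood 7.30-fold and 6.72-fold above the other libraries, which were close to each other. Mmp14 was the most abundant member in macrophages, at percentile 97.1, and also the most abundant in DC.

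Mmp13 (chromosome 9, 7272514 to 7283331, plus strand) encodes collagenase 3, an interstitial collagenase of rodents. Its FPKM was 4.47 in DC, 83.3 in the macrophage library and 4.48 in Gr-1+ cells. Macrophages were thus 18.6-fold above both other libraries, the widest gap between macrophages and DC among the members. The Gr-1+ value was 0.463 times the silent-gene level of that library and rested on about 27 fragments, so a level of Mmp13 above background was not detectable there.

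Mmp12 (chromosome 9, 7344381 to 7369499, plus strand) encodes macrophage elastase. It was at 6.30, 53.1 and 3.60 FPKM, with macrophages 8.44-fold above DC and 14.8-fold above Gr-1+ cells. Its Gr-1+ value was 0.372 times the silent-gene level, on about 29 fragments, so the fold over Gr-1+ cells compares a clear signal with one inside the background. The last bases of Mmp12 overlap Mmp1b on the other strand, which was listed at 0, 0.327 and 0.221 FPKM.

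Mmp19 (chromosome 10, 128790910 to 128800824, plus strand) encodes a secreted enzyme that cuts basement membrane proteins. It measured 4.86, 35.6 and 11.4 FPKM. Macrophages were highest, 7.32-fold above DC and 3.13-fold above Gr-1+ cells, and the Gr-1+ value lay just over the silent-gene level. An annotated antisense gene, Gm47093, covers its whole span on the opposite strand, and its end overlaps Tmem198b, at 12.9, 20.9 and 6.69 FPKM. Since strand was not stated for the counting, reads of Mmp19 and of these genes cannot be told apart where they overlap.

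Mmp25 (chromosome 17, 23628311 to 23645277, minus strand) encodes a lipid-anchored surface enzyme also known as leukolysin, which was named for its presence in leukocytes. Its levels were the lowest of the enzymes in macrophages, at 4.11, 6.27 and 16.2 FPKM. Gr-1+ cells were highest, 3.94-fold above DC and 2.59-fold above macrophages, which is a far narrower span than for Mmp8 and Mmp9. Mmp25 rested on about 152, 174 and 166 fragments, so the Gr-1+ library gave a higher FPKM from a similar number of fragments.

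The inhibitors spanned narrower ranges than most of the enzymes. Timp1 (chromosome X, 20870166 to 20874735, plus strand) encodes a secreted inhibitor that also binds the MMP9 proenzyme. Its FPKM was 23.7, 35.9 and 19.2, with macrophages 1.52-fold above DC and 1.87-fold above Gr-1+ cells. The gene is short, and the Gr-1+ value rested on about 38 fragments and was 1.99 times the silent-gene level. With that level subtracted from each library, Timp1 in Gr-1+ cells was at 29.3% of its macrophage value, against 53.6% as deposited. It lies inside Syn1 of the other strand, which was at 0.186, 0.492 and 0.920 FPKM.

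Timp2 (chromosome 11, 118301069 to 118355740, minus strand) encodes the inhibitor that forms a complex with MMP14 when MMP2 is activated. It was the most abundant inhibitor in macrophages and Gr-1+ cells, at 23.0, 63.3 and 91.5 FPKM. Gr-1+ cells were 3.97-fold above DC and macrophages 2.75-fold above DC, while Gr-1+ cells and macrophages differed 1.45-fold. DC therefore had the lowest level, with the other libraries near each other.

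Timp3 (chromosome 10, 86300372 to 86349506, plus strand) encodes the matrix-bound inhibitor that also blocks ADAM17. It was the only member that was lowest in macrophages, at 7.07, 4.14 and 12.5 FPKM, and DC were 1.71-fold above macrophages. These values were 11.6, 1.28 and 1.29 times the silent-gene level of their own library, so only the DC value was well above it. Of 12 stromal and endothelial markers, 9 were also lowest in macrophages and 3 in Gr-1+ cells. Col3a1, a fibrillar collagen of fibroblasts, was at 75.6, 27.7 and 66.5 FPKM, while Mmp2 was highest in macrophages and the endothelial gene Pecam1 was at 32.6, 12.01 and 7.49. This list summed to 398, 238 and 366 FPKM with none at 0. All 8 epithelial markers were lowest in macrophages, with a sum of 371, 232 and 839 FPKM in the same order of libraries as Timp3 and none at 0. The part of stromal and epithelial RNA in the Timp3 values was not tested. Timp3 lies inside Syn3 of the other strand, which was at 0.584, 1.14 and 2.06 FPKM.

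All 10 members were above the silent-gene level in DC and in macrophages, and 8 were in Gr-1+ cells. That level was 0.611, 3.24 and 9.69 FPKM, and the share of all genes above it is not given here, so these counts describe the members only. By highest FPKM as deposited, 5 members belonged to macrophages (Mmp12, Mmp13, Mmp14, Mmp19 and Timp1), 5 to Gr-1+ cells (Mmp8, Mmp9, Mmp25, Timp2 and Timp3) and 0 to DC. The Gr-1+ values of Mmp25 and Timp3 were only 1.67 and 1.29 times the silent-gene level. With that level subtracted from each library, Timp3 was highest in DC. Among the 17329 genes that reached 1 FPKM in any library, 19.4% were highest in macrophages, 43.7% in Gr-1+ cells and 36.9% in DC. DC had the lowest level for 7 of the 10 members, beside 7053 of the 17329 genes. These orders carry no replicate spread, and neighbours such as the DC and Gr-1+ values of Mmp13 and Mmp14 were nearly equal as deposited. With the silent-gene level subtracted, Mmp13 and Mmp14 were both lower in Gr-1+ cells than in DC.

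Differences were next read on the log2(FPKM + 1) scale, which understates differences of low values. A gene counted as past the size rule when its log2 values lay at least 2 apart and the larger FPKM was at least 10. Between DC and macrophages, 5 of 10 members were lower in DC, namely Mmp13 (-3.94), Mmp12 (-2.89), Mmp14 (-2.82), Mmp19 (-2.64) and Mmp8 (-2.08), where 2.31% of all genes compared were. No member was higher in DC (0 of 10, against 1.53% of all genes). The median difference of the members, DC minus macrophages, was -1.90, with 1 of 10 above zero, beside a median of -0.05 over all genes. Mmp8 missed the rule, at -1.72, when the libraries were scaled to equal sums, and with a pseudocount of 10 Mmp8, Mmp12 and Mmp19 missed it, at -1.31, -1.95 and -1.62.

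Against DC, the Gr-1+ library was past the rule for Mmp8 (6.10) and Mmp9 (6.0), which is 2 of 10 members beside 3.65% of all genes. None of the 10 was lower in Gr-1+ cells, beside 6.28% of all genes. The members' median was 0.91, with 8 of 10 above zero, and that of all genes was 0.01. Timp2 (1.94) and Mmp25 (1.75) came just short of the limit. Under equal 75th percentiles, which moved the median of all genes by 1.12, they reached 3.32 and 3.02.

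Against macrophages, Gr-1+ cells were again higher for Mmp9 (4.28) and Mmp8 (4.02), 2 of 10 beside 1.41% of all genes. They were lower for Mmp13 (-3.94), Mmp12 (-3.56) and Mmp14 (-2.70), 3 of 10 beside 3.41% of all genes. The median was -0.17 with 5 of 10 above zero, and all genes had a median of 0.10. The members thus parted in opposite directions in this comparison, the granule enzymes one way and the macrophage enzymes the other. Mmp14 missed the rule under equal 75th percentiles, at -1.62, a scaling that moved the median of all genes by 0.86. It also missed it with median-ratio scaling over genes at 10 FPKM or more, at -1.97. The 3 comparisons share libraries, so their values are not independent of each other.

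**Figure D2:**
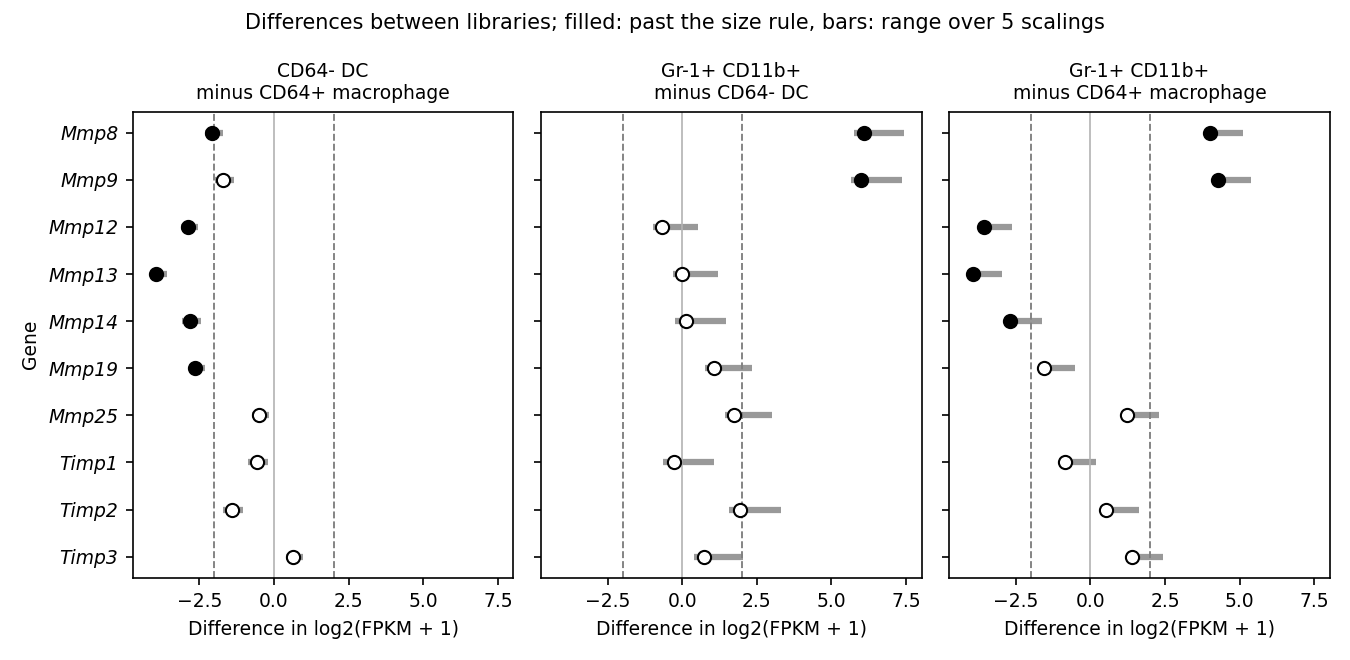
Log2(FPKM + 1) differences of the 10 genes in the 3 comparisons, 1 panel each, with points for the values as deposited (filled where past the size rule), grey bars for the range over 5 scalings and dashed lines at the limit of 2. Mmp12, Mmp13 and Mmp14 lie left of the limit against macrophages in both other libraries, and Mmp8 and Mmp9 lie far right of it in both Gr-1+ panels, while the grey bars of Mmp12, Mmp13, Mmp14 and Timp1 cross zero for Gr-1+ minus DC.

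Adding up the members gave each library its own enzyme-to-inhibitor ratio at the transcript level, which does not depend on how libraries are scaled. The 7 enzymes summed to 63.9, 436 and 1454 FPKM and the 3 inhibitors to 53.8, 103 and 123. The ratio was 1.19 in DC, 4.22 in the macrophage library and 11.8 in Gr-1+ cells. It is a ratio of RNA and not of protein, and neutrophils are known to make most of their granule enzymes while still in the marrow.

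The ratio rested on different enzymes in each library. Without Mmp8 and Mmp9 it was 0.831, 3.49 and 0.509, so that Gr-1+ cells went from the highest to the lowest. Without Mmp14 it was 0.724, 2.45 and 11.6. Mmp9 to Timp1, an enzyme and the inhibitor that binds its proenzyme, was 0.528, 1.22 and 44.9, while Mmp14 to Timp2 was 1.08, 2.88 and 0.297. The second ratio had the opposite order between macrophages and Gr-1+ cells. In Gr-1+ cells Timp1 was only 1.99 times and Mmp14 2.80 times the silent-gene level, so both ratios there include a value near background.

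As shares of the summed FPKM of all 27 Mmp and Timp symbols, which was 168, 594 and 1645, Mmp9 alone held 52.6% in Gr-1+ cells and Mmp8 another 32.0%. Together they held 11.4% in DC and 12.6% in macrophages. Mmp14 led in macrophages with 30.7%, followed by Mmp13 with 14.0%, and held 1.65% in Gr-1+ cells. In DC no gene held more than 15.3%, the share of Mmp2, and the 4 Timp genes made up 32.3%, against 17.4% in macrophages and 7.57% in Gr-1+ cells. The DC library thus had a low and evenly spread set, and each other library was led by different enzymes.

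**Figure D3:**
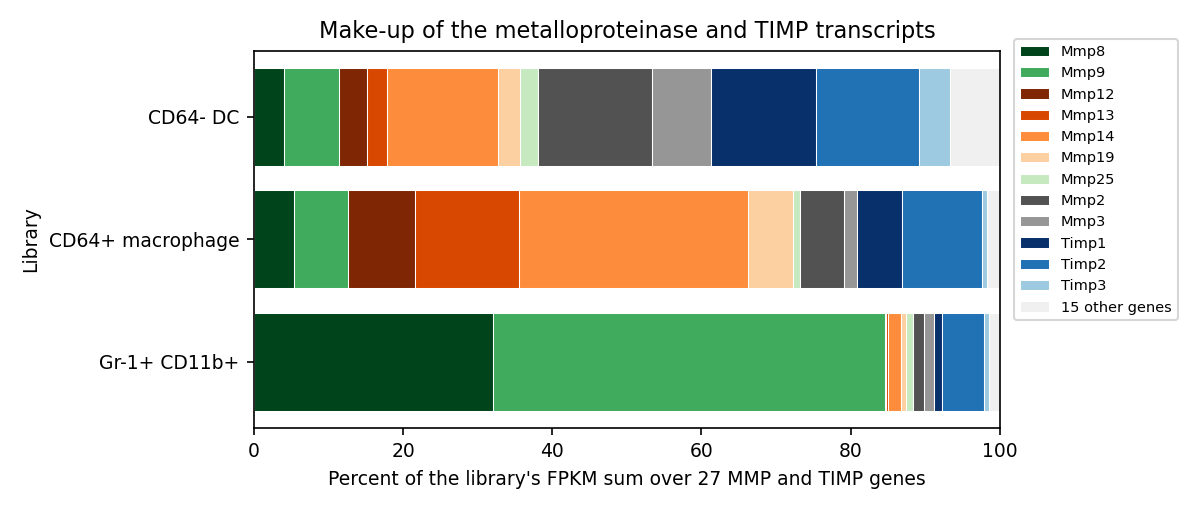
Stacked bars of the percent of the summed FPKM of all 27 Mmp and Timp symbols held by each of the 10 genes, by Mmp2 and Mmp3 and by the 15 other genes, 1 bar per library, starting at 0. Mmp8 and Mmp9 fill 84.6% of the Gr-1+ bar, Mmp14 is the largest part of the macrophage bar at 30.7%, and the DC bar has no part above 15.3%.

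Most of the other 17 Mmp and Timp symbols were low, but Mmp2 was above every member in DC. Of the 17, 10 reached 1 FPKM in any library and 2 reached 10 FPKM: Mmp2, gelatinase A, at 25.6, 34.4 and 24.5, and Mmp3, stromelysin 1, at 13.3, 10.9 and 20.1. Both are known products of fibroblasts, and neither was past the size rule in any comparison, nor was any other of the 17. Mmp10 was at 0.797, 0.958 and 6.74 FPKM, below the silent-gene level in macrophages and in Gr-1+ cells. Timp4, the remaining inhibitor, was at 0.367, 0.121 and 1.31 FPKM.

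Mmp8, Mmp12 and Mmp13 sit in 1 gene cluster on chromosome 9, which in GRCm38 ran from 7272514 to 7699585 and covered 427 kb. It held 10 family genes, in the order Mmp13, Mmp12, Mmp1b, Mmp3, Mmp1a, Mmp10, Mmp8, Mmp27, Mmp20 and Mmp7. No protein-coding gene of another family lay wholly inside. Only 4 of the 10 reached 10 FPKM in any library, namely Mmp13, Mmp12, Mmp3 and Mmp8, and 5 stayed below the silent-gene level in every library. The adjacent genes Mmp13 and Mmp12, 71.9 kb apart by their starts, were both highest in macrophages, whereas Mmp8, 286 kb from Mmp13, was highest in Gr-1+ cells. Mmp1b, between Mmp12 and Mmp3, was at or near 0 in all libraries.

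**Figure D4:**
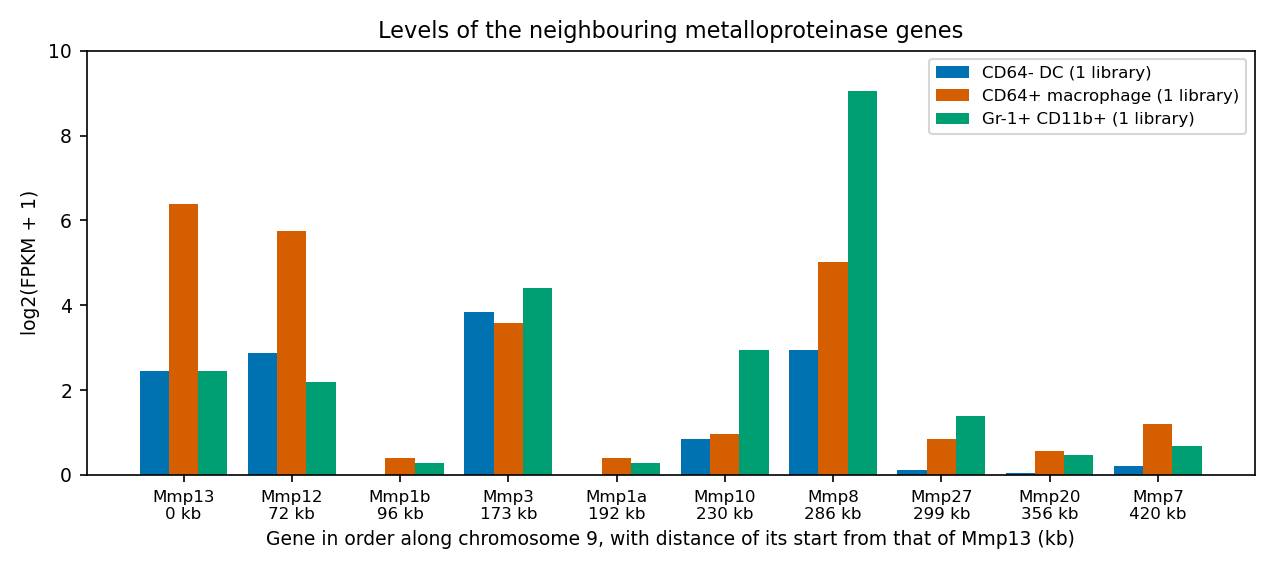
Bars of log2(FPKM + 1), starting at 0, for the 10 genes of the chromosome 9 cluster in genomic order, with the distance of each start from that of Mmp13 in kb under its name and 1 bar per library. Mmp13 and Mmp12 at the left are highest in the macrophage library, Mmp8 at 286 kb is highest in Gr-1+ cells at 526 FPKM, and the genes between and after them stay low apart from Mmp3.

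Promoters were read for 8 of the 10 members from RefSeq (GRCm38.p6), as 250 bases before and 50 after the annotated start; Mmp9 and Mmp19 had no entry. They were searched for 4 short motifs, on both strands except for the second: TGACTCA of AP-1 factors, the TATA box TATAAA, the GC box GGGCGG and AGGAAG of ETS factors such as PU.1. No match of one motif overlapped a match of another in these promoters. Sequences of the 3 cluster genes and of Mmp14 follow because these are the members with an entry that were past the size rule between macrophages and Gr-1+ cells. AP-1, TATA and GC box matches are in capitals, read 5′ to 3′ on the gene's strand.
Mmp13, chr9:7272264-7272563, plus strand: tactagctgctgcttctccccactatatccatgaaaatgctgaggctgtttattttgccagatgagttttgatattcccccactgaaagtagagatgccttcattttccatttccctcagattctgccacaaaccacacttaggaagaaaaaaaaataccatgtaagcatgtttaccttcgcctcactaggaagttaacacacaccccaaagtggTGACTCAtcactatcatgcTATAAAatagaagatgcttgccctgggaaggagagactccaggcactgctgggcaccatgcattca
Mmp12, second start, chr9:7347124-7347423, plus strand: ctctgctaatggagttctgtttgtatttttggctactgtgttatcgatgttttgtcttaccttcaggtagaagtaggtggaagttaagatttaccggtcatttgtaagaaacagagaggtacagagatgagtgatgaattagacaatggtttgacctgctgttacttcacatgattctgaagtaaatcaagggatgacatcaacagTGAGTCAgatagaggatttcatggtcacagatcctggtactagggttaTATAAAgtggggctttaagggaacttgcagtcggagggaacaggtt
Mmp8, chr9:7558179-7558478, plus strand: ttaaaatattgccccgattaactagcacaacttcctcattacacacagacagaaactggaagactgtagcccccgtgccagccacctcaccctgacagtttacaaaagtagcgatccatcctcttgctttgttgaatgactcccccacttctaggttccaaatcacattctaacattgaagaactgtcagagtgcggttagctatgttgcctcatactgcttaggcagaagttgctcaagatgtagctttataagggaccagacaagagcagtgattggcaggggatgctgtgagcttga
Mmp14, chr14:54431348-54431647, plus strand: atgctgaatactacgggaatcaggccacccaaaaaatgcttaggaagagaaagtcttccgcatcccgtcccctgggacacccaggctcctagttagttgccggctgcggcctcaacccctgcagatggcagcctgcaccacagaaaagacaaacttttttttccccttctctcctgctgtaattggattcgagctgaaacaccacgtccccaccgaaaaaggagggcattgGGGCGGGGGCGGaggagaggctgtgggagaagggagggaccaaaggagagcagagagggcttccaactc

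The AP-1 letters occurred in 2 of 8 genes, Mmp13 and Mmp12, while 5.20% of all 32851 promoters of this length held them. In Mmp13 the match began 35 bases before the start and a TATA box 16 bases before it. In the second Mmp12 promoter the AP-1 match, on the opposite strand, began 44 bases before the start and the TATA box 4 bases after it. The TATA letters were likewise in these 2 genes, beside 8.32% of all promoters, and in both the AP-1 match came first with the TATA box close behind. The first Mmp12 promoter held neither. For all 4 motifs a gene was counted when any of its promoters held a match, while the shares count single promoters. The 8 genes had 9 promoters, since Mmp12 had 2.

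The GC box was in 5 of 8 genes, Mmp14, Mmp25, Timp1, Timp2 and Timp3, beside 35.7% of all promoters. In Mmp14 it occurred 19 and 13 bases before the start. The 3 genes without one were those of the chromosome 9 cluster, whose promoters had a GC content of 46.0% (Mmp8), 38.7% and 40.7% (Mmp12) and 43.7% (Mmp13), against 55% to 68.7% in the other 5 genes and a median of 52.7% over all promoters. The ETS letters were in 7 of 8 genes, all but Timp2, beside 35.4% of all promoters. Mmp13 and Mmp12, which share AP-1 and TATA letters, were both highest in macrophages, but so was Mmp14, which has neither in its window. These matches are descriptions of letters and not of binding.

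Further genes of the same pathway were read from lists of related genes, beside the shares of all genes given above. Among 25 activators, inhibitors and receptors of these enzymes, 21 reached 1 FPKM. Gr-1+ cells were higher than DC for 4 of them (Plaur, Cd44, Lcn2 and Thbs1) and lower for 1 (Sdc1). DC were lower than macrophages for 5 (Plau, Plaur, Cd63, Prtn3 and Thbs1) and higher for 1 (Sdc1). Plaur, the receptor that holds the plasmin-forming enzyme urokinase at the cell surface, was at 361, 1601 and 1801 FPKM, so DC were low. Plau, urokinase itself, was at 1.60, 10.4 and 2.04, highest in macrophages. Thbs1, thrombospondin, a matrix protein that binds MMP2 and MMP9, was at 104, 1020 and 970. Plau, Thbs1, Cd44 and Cd63 were named after their values were seen.

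Lcn2, which forms a complex with MMP9 in neutrophils, was at 43.1, 91.0 and 3579 FPKM, the order of Mmp9. It was the only gene of that list past the rule as higher in Gr-1+ cells than in macrophages, and Prtn3, proteinase 3, was the only one lower. Sdc1, a surface proteoglycan that these enzymes shed and that plasma cells carry, was at 126, 26.6 and 10.1, highest in DC, the library with the high B and plasma cell sum. Cst3, a secreted cathepsin inhibitor abundant in dendritic cells, was at 2959, 2504 and 987. The list's median differences were -0.88 for DC minus macrophages, 0.68 for Gr-1+ cells minus DC and -0.46 for Gr-1+ cells minus macrophages.

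All 21 genes of the related ADAM and ADAMTS proteases reached 1 FPKM in some library. Between DC and macrophages, 0 of them were past the rule. With a log2 limit of 1 DC were higher for 2 and lower for 5, and the share of all genes at that limit is not given here. Adam8, a surface protease of granulocytes and other leukocytes, was the only one higher in Gr-1+ cells, at 53.8, 131 and 811 FPKM. Adam17, the sheddase of TNF that TIMP3 blocks, was at 18.7, 47.6 and 10.2 and was the only one lower in Gr-1+ cells than in macrophages. Adamdec1, a protease of gut macrophages, was at 30.8, 83.5 and 40.2 and Adam15 at 15.5, 61.4 and 27.4, both highest in macrophages without passing the rule.

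Of 20 matrix genes that these enzymes can cut, 18 reached 1 FPKM. Spp1, osteopontin, a phosphoprotein cleaved by several MMPs, was at 11.7, 76.1 and 285 FPKM and was lower in DC than in both other libraries. Vcan, a large proteoglycan made by monocytes among other cells, was at 1.32, 10.5 and 8.31, past the rule as lower in DC than in macrophages. Fn1, fibronectin, was at 11.0, 34.4 and 7.98 and passed it nowhere. The median differences of the list were 0.70, 0.05 and 0.81, in the order of comparisons used above, so its genes were on the whole lowest in macrophages.

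A list of 20 transcription factor genes held AP-1 and ETS factors, which bind motifs of the kinds searched above, and factors of other families such as C/EBP and NF-kB, whose motifs were not searched. Junb was at 905, 1334 and 1984 FPKM and Fos at 676, 1802 and 1589, neither past the rule, so the main AP-1 transcripts were abundant in every library. Fosl1, another AP-1 member, was at 3.77, 6.15 and 52.6 and was higher in Gr-1+ cells than in both others. Cebpb, a factor of granulocytes and macrophages, was at 247, 1719 and 3912 and was low in DC. Spib, a B cell and dendritic cell relative of PU.1, was at 103, 4.08 and 2.30, and Batf3, a dendritic cell factor, at 20.6, 42.1 and 1.58. Fosl1 was named after its values were seen.

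Genes with the most similar profile were found by the distance between log2(FPKM + 1) values of the 3 libraries, each gene centred on its own mean, over 6472 protein-coding genes at 10 FPKM or more. With 3 libraries many genes lie close by, and the distances are descriptions. Nearest to Mmp8 were Il1f9 (0.12), an interleukin-1 family cytokine, Fpr1 (0.15), the formyl peptide receptor of neutrophils, and Mmp9 (0.26). Nearest to Mmp9 were Mmp8, Lrg1 and Il1f9, all at 0.26. Few genes had such profiles: 8 lay within 0.5 of Mmp8 and 7 within 0.5 of Mmp9. Fpr1 was at 18.0, 92.1 and 1407 FPKM, with the same order at a higher level.

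The macrophage enzymes each had different nearest genes. Mmp12 was nearest to Apoe (0.08), a lipid carrier made in quantity by tissue macrophages, Aif1 (0.11) and Cx3cr1 (0.18), the fractalkine receptor of resident macrophages. Mmp13 was nearest to Defb35 (0.22), which was listed at 0 in both other libraries, C1qb (0.33) and Ms4a7 (0.38). Mmp14 was nearest to F13a1 (0.05), Axl (0.11) and Gdf15 (0.12), and Mmp19 to P2ry12 (0.07), Slco2b1 (0.07) and Pla2g4a (0.09). Between 9 genes, for Mmp13, and 58, for Mmp14, lay within 0.5 of these 4 members. The nearest member to Mmp12 was Mmp14, at a distance of 0.67.

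For Mmp25, Timp1, Timp2 and Timp3 the number within 0.5 was 168, 844, 133 and 209, so many genes had profiles like theirs. The 3 nearest were Apol10a, Guca2b and Kcne3 for Mmp25, Rbbp8, Fcho2 and Usp8 for Timp1, Tnfsf13b, Cd84 and Slc2a1 for Timp2, and Itgal, Tagln and Gipc2 for Timp3. Tagln, a smooth muscle and fibroblast protein, was at 8.19, 4.67 and 13.8 FPKM beside the 7.07, 4.14 and 12.5 of Timp3.

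The levels of Mmp8 and Mmp9 outside the Gr-1+ library were set beside those of the 11 neutrophil genes, of 15, that were highest there at 10 FPKM or more. Mmp8 reached 1.27% of its Gr-1+ level in DC and 5.98% in macrophages, and Mmp9 1.44% and 5.04%. The neutrophil genes had a median of 1.09% in DC, ranging from 0% for Camp to 15.3% for Ltf, and of 3.69% in macrophages, up to 7.58% for Csf3r. Mmp8 was above 8 of the 11 in DC and 9 of the 11 in macrophages, and Mmp9 above 8 in each. Both enzymes lay inside the range of these neutrophil genes in both libraries, but the 11 had been picked by the same values. Camp and Ltf, the ends of the DC range, were only at 11.3 and 15.9 FPKM in Gr-1+ cells, near the silent-gene level of 9.69. The part of neutrophil RNA in the DC and macrophage values of Mmp8 and Mmp9 was not tested.

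The same was done for the macrophage enzymes against 12 macrophage markers. The markers in DC had a median of 10.9% of their macrophage level, from 8.17% for Fcgr1 to 27.3% for Cd163, and in Gr-1+ cells a median of 10.5%, from 7.64% for C1qc to 30.8% for Cd68. Mmp12 was at 11.8% and 6.78% and Mmp14 at 13.7% and 14.9%. Mmp13, at 5.37% and 5.38%, lay below all 12 markers in both libraries, and Mmp12 lay below all 12 in Gr-1+ cells. Mmp19 was at 13.7% in DC and at 31.9% in Gr-1+ cells, where it lay above all 12. That Gr-1+ value was only 1.17 times the silent-gene level. With this level subtracted from each library, Mmp19 was at 5.15% in Gr-1+ cells, above 5 of the 12 markers, whose median was 7.50%. Mmp12 and Mmp13 were then at 0% in Gr-1+ cells. Only 8 of the 12 markers were above the level there, and the others were at 0% too, so Mmp12 and Mmp13 were no longer below all of them there. In DC, Mmp13 was still below all 12 after the subtraction, at 4.83% against a lowest marker at 7.85%. The part of macrophage RNA in the values of the other libraries was not tested.

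**Figure D5:**
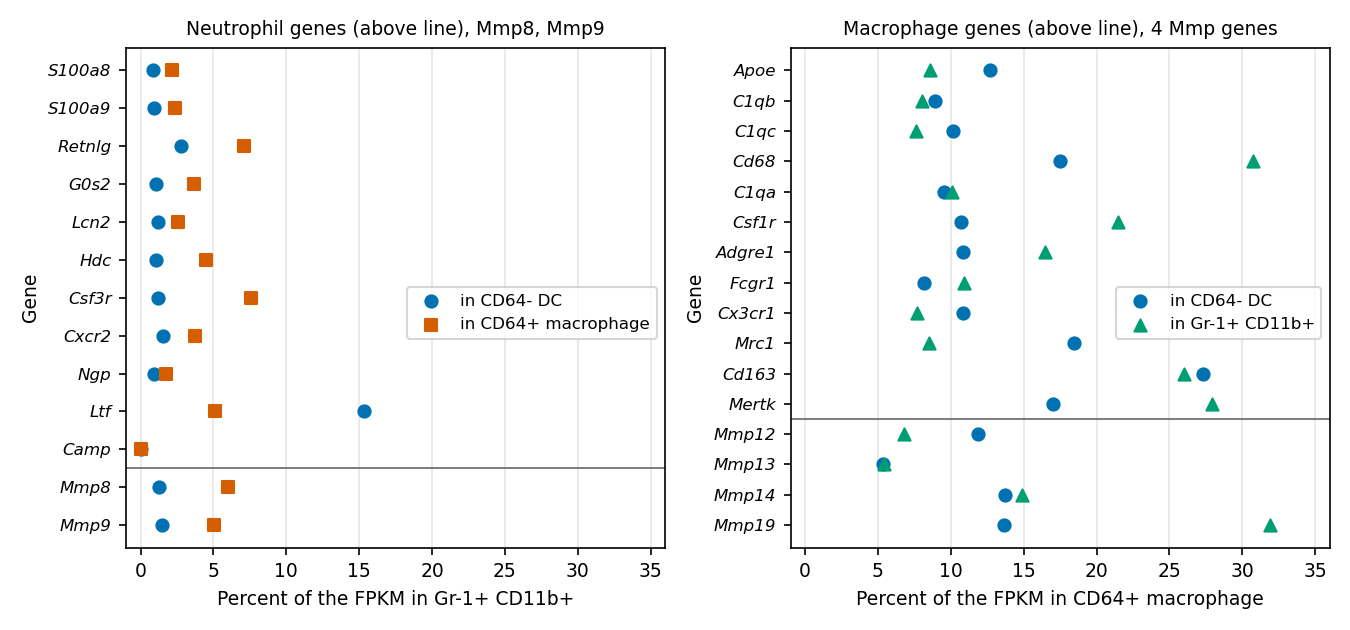
Left: the level in DC and macrophages as a percent of the Gr-1+ level for 11 neutrophil genes and, under the line, Mmp8 and Mmp9. Right: the level in DC and Gr-1+ cells as a percent of the macrophage level for 12 macrophage markers and, under the line, 4 enzymes. Mmp13 lies below every marker at 5.37% and 5.38%, as does Mmp12 in Gr-1+ cells at 6.78%. Mmp19 reaches 31.9% in Gr-1+ cells, from an FPKM close to the silent-gene level.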

How the data were processed

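RNA of 3 colonic myeloid populations, 1 library each, was extracted with RNeasy columns, copied with SMART-Seq HT and made into Nextera libraries, per the labels' protocols. Each deposited table gives 1 library, with a value per gene symbol that was read as FPKM because the submitters' processing notes name Cufflinks and the values do not contradict it. Those notes list mm10, Cufflinks 2.2.1, TopHat2 2.0.13, SAMtools 0.1.19 and Bowtie2 2.2.3 without saying what each did. The sources used here do not give the annotation, filters, strand or pooling.

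FPKM is relative, so a library whose RNA is dominated by a few genes has lower values elsewhere: the 10 highest genes held 15.0%, 22.2% and 33.5% of the sum in DC, macrophages and Gr-1+ cells. Values were used as deposited with a pseudocount of 1 before log2. The size rule was applied, with no test, to the 17329 genes that reached 1 FPKM in some library.

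Depth came from genes with a single transcript of at least 800 nt, whose FPKM times length steps by 1 fragment. Between 60.1% and 70.2% of the low values were no more than 0.2 from a whole number of fragments, and 40% would be by chance. At the members' lengths 3 fragments gave 0.078 to 0.417 FPKM in DC, 0.103 to 0.553 in macrophages and 0.281 to 1.50 in Gr-1+ cells, and every member was above that. This covers counting error only, since without molecular identifiers amplified copies of a molecule count more than once.

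The members and gene lists were chosen with earlier results of these data known. Named were all members, other family genes at 10 FPKM or more, in each list the 3 highest genes and the 3 with the largest difference, and the 3 nearest profiles of each member. Not all of these are described. Positions and transcripts came from GENCODE M21 (GRCm38, the assembly also called mm10), where 23310 of the 24346 symbols were found, and promoters from RefSeq (GRCm38.p6). The size rule was tested on simulated data. Alternatives were pseudocounts of 0.1 and 10, floors of 1 and 30 FPKM, log2 limits of 1 and 3, and 3 scalings. A median-ratio scaling over genes at 10 FPKM or more and a subtraction of the silent-gene level were added after the data were seen. Python 3.11.15, NumPy 2.4.6, pandas 2.3.3 and matplotlib 3.10.9 were used.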

Additional observations from a re-analysis of the deposited data

How the results depend on the processing

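The count of members lower in DC than in macrophages, 5, became 2 (Mmp13 and Mmp14) with a pseudocount of 10 and 1 (Mmp13) with a log2 limit of 3. The count higher in Gr-1+ cells than in DC, 2, became 5 with a log2 limit of 1, 6 under equal 75th percentiles and 4 with median-ratio scaling over genes at 10 FPKM or more. The count higher in Gr-1+ cells than in macrophages, 2, became 4 both with a log2 limit of 1 and under equal 75th percentiles. The genes gained under equal 75th percentiles were Mmp25 and Timp3 in both comparisons, with Mmp19 and Timp2 added against DC. That scaling moved the median of all genes by 1.12 against DC and 0.86 against macrophages. The share of all genes called under each alternative is not given here, so the changed counts describe the members only. Mmp8 and Mmp9 passed the rule as higher in Gr-1+ cells than in both other libraries, and Mmp13 as lower in both other libraries than in macrophages, under each alternative tried. No difference of a member that was past the rule changed sign. For Gr-1+ cells minus DC, the small differences of Mmp12 (-0.98 to 0.51), Mmp13 (-0.30 to 1.18), Mmp14 (-0.24 to 1.48) and Timp1 (-0.64 to 1.07) changed sign over the scalings, as did that of Timp1 for Gr-1+ cells minus macrophages (-0.87 to 0.20). Subtracting the silent-gene level put Mmp13, Mmp14, Mmp19 and Timp3 lower in Gr-1+ cells than in DC, the reverse of their order as deposited. Their Gr-1+ values were 0.463, 2.80, 1.17 and 1.29 times that level, in the same order of genes. Mmp19, Gr-1+ cells minus macrophages, was -1.57 as deposited and -3.65 after the silent-gene level was subtracted, an alternative chosen after seeing the data. Depth was lowest in the Gr-1+ library, where Mmp13, Mmp12 and Timp1 rested on about 27, 29 and 38 fragments. No replicate could be left out with 1 library per population.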

Other observations

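Prtn3, the gene of proteinase 3, a serine protease that neutrophil precursors store in azurophil granules and that can activate metalloproteinases, did not follow Mmp8, Mmp9 and Lcn2, which neutrophils keep in other granules. Its FPKM was 0.146 in DC, 37.4 in the macrophage library and 4.69 in Gr-1+ cells, so it was highest in macrophages, and its Gr-1+ value lay below the silent-gene level of 9.69. The other azurophil granule genes of the neutrophil list were at or near 0 in every library: Elane was listed at 0 in all 3, Mpo was at 0, 0.250 and 0.169 FPKM, and Ctsg at 0.14, 0.37 and 0.50. Chil3, a chitinase-like protein of monocytes and some macrophages, was also highest in macrophages, at 28.8, 566 and 198 FPKM. No test was possible with 1 library per population.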
